A study of Mus musculus with 6 samples.

Results

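H3K27ac, the acetylated histone mark of active promoters and enhancers, was examined at 8 genes of the cAMP pathway that runs from the beta-adrenergic receptor to the transcription factor CREB. They were the CREB family factors Creb1, Crem and Creb5, the CREB coactivators Crtc1, Crtc2 and Crtc3, and the cAMP phosphodiesterases Pde4b and Pde4d. A peak was taken as belonging to a gene when the authors' annotation gave that gene as its nearest one, at whatever distance and whatever its signal. This gave 59 of the 46988 peaks listed for control mice and 43 of the 40721 peaks listed for detrained mice.

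Quadriceps muscle was taken from 2 groups of wild type C57BL/6 mice, which the study's methods describe as male C57BL/6J. Control mice were sedentary. Detrained mice had free access to running wheels for 4 weeks from 8 weeks of age and were harvested after a 72 h rest without wheels. Each group had 2 H3K27ac libraries, named C2 and C3 for control and Ex1 and Ex2 for detrained mice, each from a single quadriceps of 1 animal, and 1 input library. The tissue was whole muscle, so nuclei of fibres and of other cells were measured together, and a change in the mix of cells cannot be told apart from a change in acetylation within a cell type.

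Signalling through this pathway begins when catecholamines bind beta-adrenergic receptors, which activate adenylyl cyclase and raise cAMP. Cyclic AMP frees the catalytic subunits of protein kinase A, which phosphorylate CREB and, by inhibiting the salt-inducible kinases, let the CRTC coactivators enter the nucleus and join CREB on the cAMP response element (CRE). Phosphodiesterases of the PDE4 family end the signal by hydrolysing cAMP. In muscle the pathway is known for its part in the response to exercise and in glycogen breakdown.

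Sequences are shown for places where the CRE, the letters TGACGTCA to which CREB binds, lay under a peak listed in both groups. They are also shown for starts of Creb5 and Pde4b whose acetylation is described below. The RefSeq promoter table of build GRCm38.p6, which is the genome mm10 of the peak lists, held 10 promoters for 6 of the 8 genes and none for Crem and Crtc2. Windows ran from 250 bases before a transcript start to 50 bases after it, and the bases before the start are printed 5′ to 3′ on the strand of the gene. Capitals mark the CRE or its core, the letters TGACG on either strand. The core is part of the CRE, and since the CRE reads the same on both strands each CRE holds the core on both. The first Creb5 start, of NM_001327821, was the sole promoter of the 10 with a CRE, whose first base lay 45 bases before the start. In all, 588 of 32851 promoters, or 1.79%, held a CRE. The core was found in 2 of the 10 promoters and in 20.8% of all promoters. The 4 promoters printed first are the first and second starts of Creb5, at chr6:53287053-53287302 and chr6:53573124-53573373, the Pde4b start of NM_001177980 inside its strongest peak, at chr4:102569810-102570059, and the Pde4b start of NM_001374780, which lay under no peak, at chr4:102421305-102421554, all on the plus strand.
Creb5 first start: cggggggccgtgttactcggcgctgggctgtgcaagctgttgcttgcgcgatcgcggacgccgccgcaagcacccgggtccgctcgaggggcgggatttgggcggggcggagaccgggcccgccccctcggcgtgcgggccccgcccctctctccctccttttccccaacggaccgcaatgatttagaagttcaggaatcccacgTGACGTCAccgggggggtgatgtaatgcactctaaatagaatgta
Creb5 second start: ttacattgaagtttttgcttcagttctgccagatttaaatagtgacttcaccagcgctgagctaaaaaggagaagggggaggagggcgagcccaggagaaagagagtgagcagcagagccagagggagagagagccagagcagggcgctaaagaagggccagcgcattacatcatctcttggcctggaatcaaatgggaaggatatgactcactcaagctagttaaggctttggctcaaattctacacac
Pde4b start with a peak: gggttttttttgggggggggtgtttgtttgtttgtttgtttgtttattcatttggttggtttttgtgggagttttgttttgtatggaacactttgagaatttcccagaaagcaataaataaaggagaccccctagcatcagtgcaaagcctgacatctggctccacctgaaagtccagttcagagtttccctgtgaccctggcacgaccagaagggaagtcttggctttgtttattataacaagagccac
Pde4b start with no peak: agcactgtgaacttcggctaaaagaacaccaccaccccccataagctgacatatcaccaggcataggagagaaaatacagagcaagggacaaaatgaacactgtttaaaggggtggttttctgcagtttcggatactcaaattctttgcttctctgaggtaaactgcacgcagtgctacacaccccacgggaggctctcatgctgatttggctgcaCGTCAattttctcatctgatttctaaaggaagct

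Base composition differed among these promoters. The first Creb5 window held 31 CpG dinucleotides and the second 4, and the Pde4b window with a peak held 2 and the one without held 8. The windows of Creb1, Crtc1 and Crtc3 held 31, 40 and 40, against a median of 7 over all promoters. The 3 Pde4b windows under a peak held 2, 1 and 6, so the acetylated Pde4b starts had windows with no more CpG than that median.

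Within the listed peaks, a CRE lay in 5 of 59 (8.47%) for control mice and in 4 of 43 (9.30%) for detrained mice, against 2.75% and 3.10% of all listed peaks. Per 100 kb of peak this was 4.97 CREs in control and 4.78 in detrained mice, against 1.33 over all peaks of each list. The internal peak of Crem held 3 of these CREs in each group, and without the peaks of Crem the rates were 2.99 and 2.52. The core was about as frequent as elsewhere, at 0.475 per kb in control and 0.542 in detrained mice against 0.471 and 0.474 over all peaks. A weak intronic Creb5 peak of 6.34 tags per 10000000, at chr6:53591879-53592379 and listed in control mice alone, also held a CRE, which is not printed. Both Pde4b peaks with a CRE were intronic and were listed in both groups, and each CRE is shown with 30 bases on either side on the plus strand. The first lay 138 kb before the start of NM_001177980 by peak centre, at chr4:102432234-102432301, and the second lay in a strong peak 60.0 kb before that start, at chr4:102511059-102511126.
Pde4b weak intronic peak: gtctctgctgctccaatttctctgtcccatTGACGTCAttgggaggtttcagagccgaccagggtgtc
Pde4b strong intronic peak: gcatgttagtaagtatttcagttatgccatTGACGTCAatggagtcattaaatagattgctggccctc

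The H3K27ac libraries held between 20805019 and 22400894 tags, and the inputs 10812470 tags for control and 21298438 for detrained mice. All 8 skeletal muscle markers had a peak in both groups, and neither adipocyte marker (Adipoq, Plin1) nor the brown adipocyte marker Ucp1 had one. Leukocyte markers had a peak for 2 of 4 genes in control and 3 of 4 in detrained mice, and their summed tags per 10000000 ran from 39.8 to 43.1 in control and from 134 to 169 in detrained libraries. Cd68 had no peak in either group, and Ptprc, the pan-leukocyte gene, had one in detrained mice alone. Tags of the 4 fibroblast markers summed to between 2355 and 2420 in control and to between 2921 and 2927 in detrained libraries, and those of the 2 satellite cell markers to between 173 and 179 and to between 227 and 246. These sums cover listed peaks only, which took 2.43 kb in control and 8.02 kb in detrained mice at the leukocyte markers. They took 65.7 and 76.1 kb at the fibroblast markers and 9.96 and 14.3 kb at the satellite cell markers. Higher sums thus went with a longer listed length. Summed tags of the skeletal muscle, endothelial and neuronal and glial markers overlapped between the groups. The part of these cells in the results at the 8 genes was not tested.

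Most of the peaks belonged to a pair of genes. In control mice Creb5 had 22 peaks and Pde4b 21, together 72.9% of the 59, and in detrained mice they had 16 and 14, or 69.8% of the 43. Crtc3 had 6 control and 4 detrained peaks, Crem 3 and 2, Crtc1 3 and 3, Creb1 2 and 2, and Crtc2 and Pde4d 1 each in both groups. Introns held 47 peaks in control and 33 in detrained mice, where they held 50.8% and 49.1% of all peaks, and 42 and 31 lay more than 10 kb from the annotated start. The genes together had 1.37 control peaks for each detrained peak, against 1.15 over the whole lists. It was smaller or turned around among stronger peaks, where the genes had 46 control and 43 detrained peaks when equal numbers of top peaks were taken from both lists, and 24 and 29 when peaks had to pass 4-fold over input with an adjusted p-value of the authors under 0.001. The whole lists then held 23830 and 25031 peaks and turned the same way. Summed over all their peaks the tags were closer than the counts, with 8161 tags per 10000000 over 141 kb in control and 7419 over 126 kb in detrained mice, or 57.9 and 59.1 tags per kb.

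The peaks found in one list alone were mostly weak control peaks. No detrained peak overlapped 18 of the 59 control peaks, or 30.5%, and the same held for 27.9% of all control peaks. No control peak overlapped 2 of the 43 detrained peaks, or 4.65%, against 18% of all detrained peaks. The control peaks without a partner had a median of 9.39 tags per 10000000, against 64.3 for those with one. The strongest of them was an intronic Pde4b peak at chr4:102513667-102516433 with 39.1 tags, followed by an intronic Creb5 peak at chr6:53506467-53508371 with 38.0. Crtc3 lacked a partner for 2 peaks in its first introns, of 29.6 and 11.8 tags, and Crem for 1 intergenic peak of 6.34 tags. Of the 2 detrained peaks without a partner, the Creb5 peak at chr6:53336364-53338536 in the first intron held 48.9 tags, and the Pde4b peak at chr4:102407578-102408078 held 5.33. Since peaks were listed separately in each group, absence from a list says that the threshold was not passed and not that acetylation was absent.

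Acetylation covered most but not all starts of these genes. Of the 19 distinct RefSeq transcript starts, 13 lay in a peak in control and the same 13 in detrained mice, against 47.5% and 47.4% of the 31647 starts of all genes. Creb1, Crtc1, Crtc2, Crtc3 and both starts of Creb5 were covered in both groups. Pde4b had 3 of 6 starts covered, Crem 4 of 6, and the Pde4d start none. The authors' promoter class, set by the peak centre, held 1 control and 2 detrained peaks of these genes, and 11.2% and 12.6% of all peaks, whereas 10 control and 9 detrained peaks covered a start and were mostly centred inside the gene.

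Levels were compared as H3K27ac density, the tags per kb of listed peak per 10000000 total tags, with the peak of highest density taken for each gene. In control mice Pde4b stood first with 119 and 151 in the 2 libraries, followed by Crem with 112 and 125, Creb1 with 105 and 107, and Crtc3 with 95.3 and 109. The libraries of Pde4b and Crem overlapped, as did those of Creb1 and Crtc3, while Crem lay above Creb1. Crtc2 followed with 62.7 and 56.6, then Crtc1 with 53.0 and 52.8 and Creb5 with 52.9 and 43.8, of which Crtc1 and Creb5 overlapped. Pde4d was last with 18.1 and 22. In detrained mice Crem stood first with 135 and 122, Creb1 had 118 and 107, and Pde4b, now at another peak, 110 and 101. Creb1 and Pde4b overlapped, and the lower places were taken without overlap by Crtc3, Creb5, Crtc1, Crtc2 and Pde4d, with 22.3 and 25.4 for Pde4d. Over all peaks of the 8 genes the median peak stood at percentile 40.9 of density in the control list and 44.8 in the detrained list.

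A control and a detrained peak were set against each other when their overlap took in 50% or more of both, which gave 27 pairs at these genes of 26432 in all. The tables were normalized separately by the authors, so no test between groups was made, and with 2 libraries against 2 exact permutation, tested on both sides, cannot give a p below 0.333. Instead it was recorded whether both detrained libraries lay on one side of both control libraries. At these genes 7 of 27 pairs lay below and 4 above, or 25.9% and 14.8%, against 27.2% and 21.3% of all pairs, and at the other 16 the groups overlapped. The median log2 ratio of detrained over control density was 0.07, against -0.03 over all pairs, and no pair reached a 2-fold difference. The balance of the counts turned with the scaling. With libraries scaled to the tags in listed peaks, 7 pairs lay below and 10 above, against 22% and 27.8% of all pairs. Without division by peak length 10 lay below and 7 above, against 28.8% and 24.7%. When 80% of each peak had to be covered 1 of 10 pairs lay below and 1 above, against 23.7% and 16.5% of all pairs. The direction of the median did not hold when a library was left out. It was -0.037 without C2 and -0.022 without Ex2, where the median of all pairs was -0.058 and 0.0057.

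**Figure D1:**
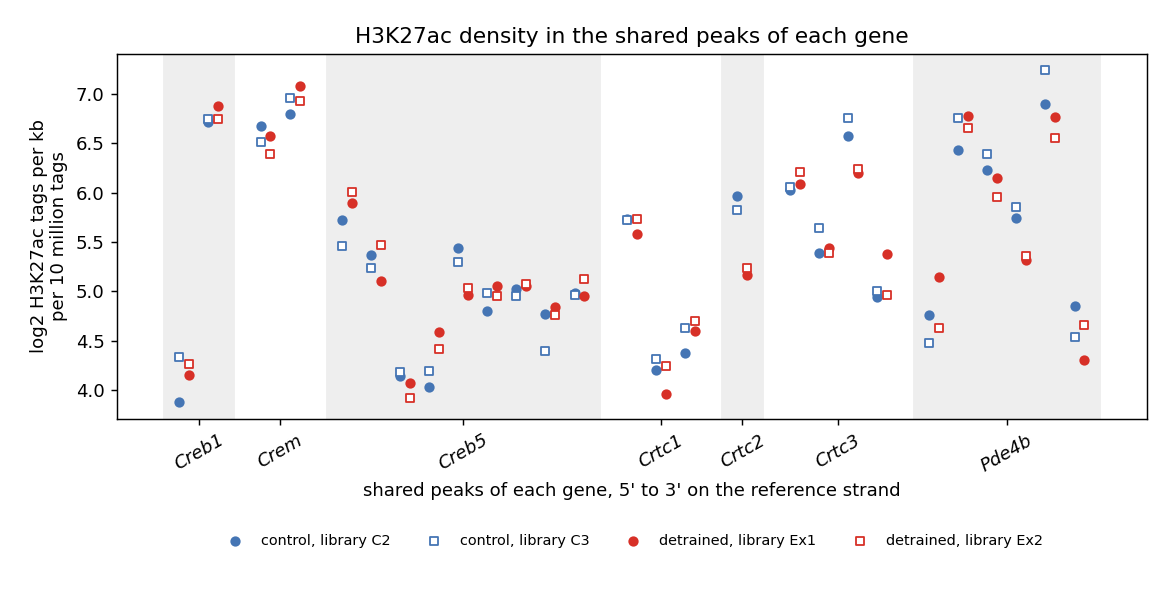
H3K27ac density, as log2 tags per kb per 10000000 tags, in each library for the 27 shared peaks, grouped by gene, with control in blue and detrained in red (circles C2 and Ex1, squares C3 and Ex2). Both detrained libraries lie below both control libraries at 7 peaks, among them the Crtc2 peak, and above them at 4.

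At Creb1, which encodes the factor that gives the family its name, the libraries of both groups overlapped in density at each of its 2 peaks. The peak over the Creb1 start, at chr1:64531635-64535375 in control mice, had 105 and 107 tags per kb in control and 118 and 107 in detrained libraries. The log2 ratio was 0.08, with a pooled SD of 0.07 between libraries. The detrained peak was shorter, and in summed tags both detrained libraries, with 366 and 334 per 10000000, lay below both control libraries, with 395 and 402. A weak intergenic peak 158 kb before the Creb1 start, with 14.7 and 20.1 against 17.8 and 19.1, also overlapped.

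Crem encodes activators and, from an internal promoter, the short repressor ICER, which is known to be induced by cAMP. Crem lies on chromosome 18, and its sequences are not printed. The peak at its first starts, from 3335114 to 3338960, had 112 and 125 tags per kb in control and 135 and 122 in detrained libraries. Its log2 ratio was 0.12, with a pooled SD of 0.11. In both groups the annotation placed this peak in the noncoding transcript NR_033457 of Gm6225. The second peak, from 3279668 to 3282322, covered 2 internal starts 55.9 and 56.5 kb further into the gene. It had 102 and 91.7 tags per kb in control and 95.2 and 84.0 in detrained libraries, and its log2 ratio was -0.12. At both peaks the groups overlapped. The starts at 3299556 and 3327591 between them, the latter with 11 RefSeq transcripts, lay in no peak of either list. The internal peak held 3 CREs in both groups, the highest number in any peak of the 8 genes, and the peak at the first starts held none. A long gap thus separated 2 strongly acetylated start regions, the CREs being under the internal one.

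Creb5, a relative of ATF2 that binds the CRE, had the most peaks, spread through its introns on chromosome 6 and each weaker than the leading peaks of the other factors. The peak over its first start, at chr6:53285838-53291074 in control mice, had 52.9 and 43.8 tags per kb in control and 59.4 and 64.3 in detrained libraries. Both detrained libraries lay above both control libraries, with a log2 ratio of 0.36 and a pooled SD of 0.15. The detrained peak was shorter, at 3257 bp against 5236 bp, and it held fewer tags in total, 201 against 253 per 10000000, so the direction turned with the measure. Summed over the merged region the libraries had 277 and 230 tags in control and 193 and 209 in detrained mice, both detrained libraries then being the lower ones. This is the peak with the CRE shown above.

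The second Creb5 start, of NM_172728, showed the opposite. Its peak had 43.3 and 39.4 tags per kb in control and 31.1 and 32.6 in detrained libraries, a log2 ratio of -0.37 with a pooled SD of 0.08. Here the detrained peak was the longer one, at 6882 bp against 4127 bp, and it also overlapped a second control peak. Over the merged region the tags were 206 and 187 in control and 214 and 225 in detrained libraries, with both detrained libraries above. At neither Creb5 start, then, did density per kb and summed tags give the same order of the groups.

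Within Creb5 the largest log2 ratio in density was 0.39, at an intronic peak 41.9 kb before the second start (chr6:53530464-53532400), with 16.4 and 18.3 tags per kb in control and 24.1 and 21.3 in detrained libraries. Its summed tags, 31.7 and 35.4 against 36.5 and 32.3, overlapped. The largest ratios in summed tags were at weak peaks. A peak 23 kb after the second start held 41.9 tags over 2031 bp in control and 11.4 over 500 bp in detrained mice, and one 81.0 kb after it held 14.3 tags over 500 bp and 40.3 over 1574 bp. These partners overlapped for less than the required share of the longer peak and were not counted among the 27 pairs. Across the 9 Creb5 pairs 2 lay below, 3 above and 4 overlapped, near the 27.2% below and 21.3% above of all pairs, with a median log2 ratio of 0.07.

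**Figure D2:**
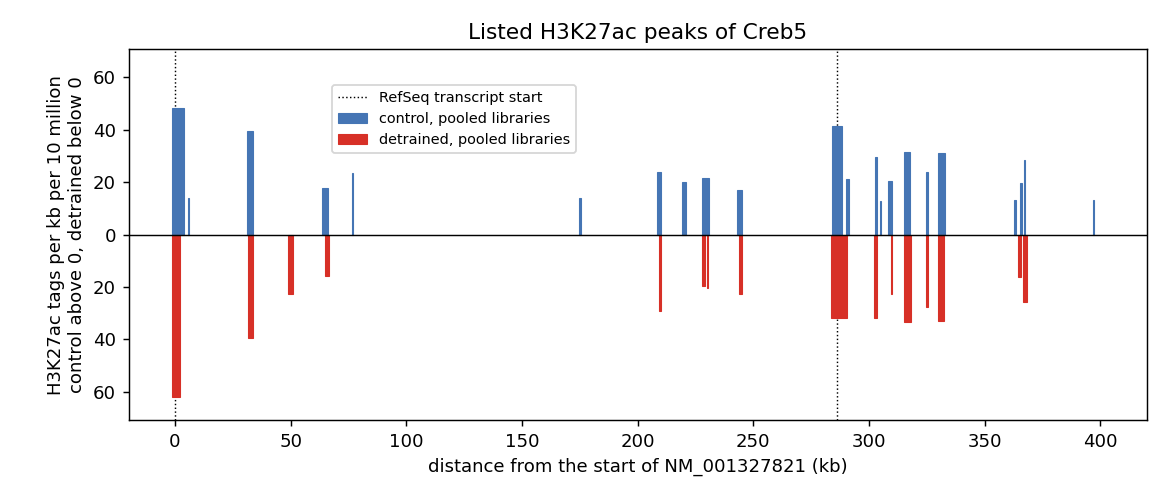
Listed H3K27ac peaks of Creb5 by distance in kb from the start of NM_001327821, drawn to their listed length, with pooled tags per kb per 10000000 for control upward in blue and for detrained mice downward in red, and the 2 RefSeq starts dotted. The peak over the first start is shorter and denser in detrained mice, and the one over the second start is longer and less dense.

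Of the CRTC coactivators, which carry the cAMP signal to CREB, Crtc1 had overlapping densities in both groups, Crtc3 had lower density over its start in both detrained libraries, and the value at Crtc2 turned on how the peaks were outlined. The Crtc1 promoter peak, at chr8:70438848-70440174, had 53.0 and 52.8 tags per kb in control and 47.8 and 53.2 in detrained libraries, a log2 ratio of -0.07 with a pooled SD of 0.08. A second Crtc1 peak 14.8 kb before the start, inside an intron of the neighbouring gene Klhl26, had 20.7 and 24.6 against 24.2 and 26.0. Both pairs overlapped in density, as did another at an intergenic site. In summed tags, in which 29.5% of all regions lay below and 28.2% above, the groups separated at all 3, above in detrained mice at the promoter peak, with 70.3 and 70.0 against 73.1 and 81.4, and at the intergenic one, with 20.9 and 22.6 against 30.0 and 36.5, and below at the peak in Klhl26, with 40.7 and 48.5 against 25.8 and 27.8.

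The Crtc2 peak had the lowest log2 ratio of the 27 pairs, -0.70, with 62.7 and 56.6 tags per kb in control and 35.8 and 37.6 in detrained libraries and a pooled SD of 0.08. The outline of the peaks differed here. In control mice a single peak of 8221 bp at chr3:90247291-90255512 covered the Crtc2 start and the adjoining gene Slc39a1, a zinc transporter, whereas in detrained mice 2 peaks were listed, and the peak named for Crtc2, at chr3:90250886-90255130, had 4244 bp. Summed over both detrained peaks the region held 421 and 375 tags per 10000000 against 515 and 466 in control mice. In summed tags both detrained libraries lay below, with a log2 ratio of -0.30, for Crtc2 and Slc39a1 together. Per kb of the 6930 bp that the 2 detrained peaks covered, the libraries had 60.7 and 54.2 tags, which overlapped the 62.7 and 56.6 of control mice, with a log2 ratio of -0.06. The pair was also lost when 80% of each peak had to be covered and when each peak could overlap only 1 other.

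Crtc3 had lower values over its start in both detrained libraries under both measures. The peak at chr7:80686835-80690490 had 95.3 and 109 tags per kb in control and 73.4 and 75.4 in detrained libraries, with a log2 ratio of -0.45 and a pooled SD of 0.10. The detrained peak was longer, and summed tags of 348 and 397 in control against 331 and 340 in detrained libraries gave a log2 ratio of -0.15, with both detrained libraries still below. An intronic Crtc3 peak 22.4 kb into the gene, at chr7:80664463-80668468, lay above in density, with 65.4 and 66.6 against 68.3 and 74.1, and below in summed tags, with 262 and 267 against 179 and 194. By summed tags 3 of the 4 Crtc3 regions lay below in both detrained libraries and none above, where 29.5% and 28.2% of all regions did so. The fourth, 42.2 kb before the start and inside an intron of Iqgap1, overlapped, with 70.9 and 74.0 against 96.6 and 72.1.

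Pde4b, which encodes a phosphodiesterase that degrades cAMP and is produced as long and short forms from separate starts, carried the most summed tags of the 8 genes in both groups. Its first starts, of NM_001177983 and NM_019840, and the start of NM_001374780 167 kb further on lay in no peak in either group. The 3 starts between 315 and 335 kb from the first start lay in a domain of H3K27ac on chr4:102567414-102595010. In control mice the domain was listed as 2 peaks of 1933 and 655 tags per 10000000, and in detrained mice as 1 peak of 2580 tags and a small one of 26.9. The control peak of 1933 tags stood at percentile 99.9 of the control list by tags.

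The groups separated when the paired peaks of the domain were compared and overlapped when the whole domain was. The paired peaks had 119 and 151 tags per kb in control and 109 and 94.2 in detrained libraries, both detrained libraries lying below, with a log2 ratio of -0.41 and a pooled SD of 0.20, but the detrained peak was 25460 bp long against 14304 bp. Over the whole domain the libraries had 2322 and 2862 tags in control and 2804 and 2425 in detrained mice, which overlapped, with a log2 ratio of 0.02, and per kb covered they had 86.3 and 106 against 105 and 90.7. Within each library the domain held 57.3% and 59.8% of all Pde4b tags in control and 61.4% and 60.3% in detrained mice. These shares need no scaling between the tables.

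Upstream of the domain lay further strong intronic Pde4b peaks. The peak with the CRE 60.0 kb before the start of NM_001177980 had 86.2 and 108 tags per kb in control and 110 and 101 in detrained libraries, which overlapped. The peak 33.5 kb before it had 74.8 and 84.0 against 70.8 and 62.3, with both detrained libraries below and a log2 ratio of -0.26, and its summed tags of 678 and 761 against 654 and 575 also lay below. At 12.1 kb before that start (chr4:102556958-102558889) the density was 53.4 and 57.9 in control and 39.8 and 40.9 in detrained libraries, a log2 ratio of -0.46, whereas the summed tags of 103 and 112 against 111 and 114 overlapped. Across the 6 Pde4b pairs 3 lay below and none above in density, against 27.2% and 21.3% of all pairs, with a median log2 ratio of -0.23. Across the 10 merged Pde4b regions 1 lay below and 4 above in summed tags, against 29.5% and 28.2% of all regions, with a median of 0.04. The 4 regions that lay above were weak ones, of 17.2 to 63.4 tags per 10000000 in control mice, whose detrained peaks were longer. The summed tags of leukocyte markers, given above, were also higher in detrained libraries, over a longer listed length. The part of leukocytes in these values was not tested.

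**Figure D3:**
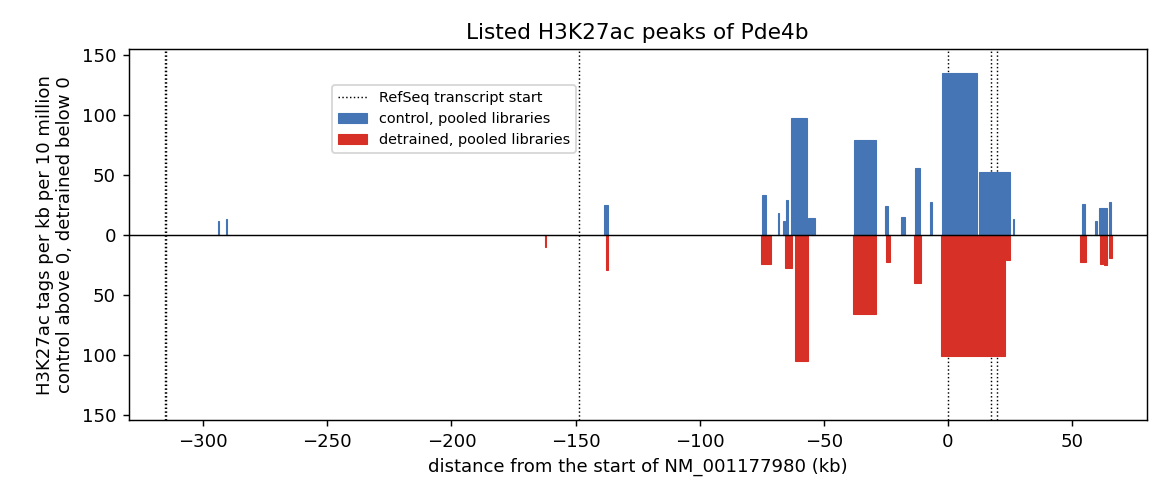
Listed H3K27ac peaks of Pde4b by distance in kb from the start of NM_001177980, drawn to their listed length, with pooled tags per kb per 10000000 for control upward in blue and for detrained mice downward in red, and the RefSeq starts dotted. The acetylated domain covers this start in both groups, as 2 peaks in control mice and mainly as 1 peak of 25460 bp in detrained mice, while the starts at the left end have no peak.

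Pde4d, the other cAMP phosphodiesterase of the set, had no peak over its RefSeq start and 1 intergenic peak 112 kb before it in each group. That peak had 770 bp and 15.2 tags per 10000000 in control mice and 2184 bp and 51.9 tags in detrained mice, or 3.41 times as many. In density it had 18.1 and 22 tags per kb in control and 22.3 and 25.4 in detrained libraries, with detrained libraries above in both measures. The control peak covered too little of the detrained peak for a shared pair, and the larger tag total went with the longer outline.

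Density and summed tags gave different orders of the groups at part of the peaks. Across the 27 pairs the log2 ratio of tags per peak and the log2 ratio of peak length had a Spearman correlation of 0.85 and a Pearson correlation of 0.86, and across all 26432 pairs 0.76 and 0.77. Density is tags over length, so its ratio shares a term with the length ratio, and no correlation between these is read. The peaks share their libraries, and the values are given as a description. When overlapping peaks of both lists were merged and their tags summed, an analysis chosen after seeing the data, 37 regions held a peak of the 8 genes. Of these 13 lay below and 11 above in both detrained libraries, or 35.1% and 29.7%, against 29.5% and 28.2% of all 31776 regions, and the median log2 ratio was -0.0041. In 6 of the 37 regions, or 16.2%, a list had more than 1 peak, against 9.59% of all regions. On the same merged regions, 3 of the 37 lay below in both summed tags and tags per kb covered, or 8.11%, against 9.55% of all regions. They were the start of Crtc3, the Pde4b peak 33.5 kb before the start of NM_001177980 and the Creb5 peak 64.9 kb after the first start, which had 17.6 and 18.1 tags per kb against 16.7 and 15.1. Under both measures 2 lay above, or 5.41%, against 6.95% of all regions, namely the Pde4d peak and the Creb5 peak 30.5 kb after the second start, with 32.5 and 31 tags per kb against 33.3 and 33.6.

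**Figure D4:**
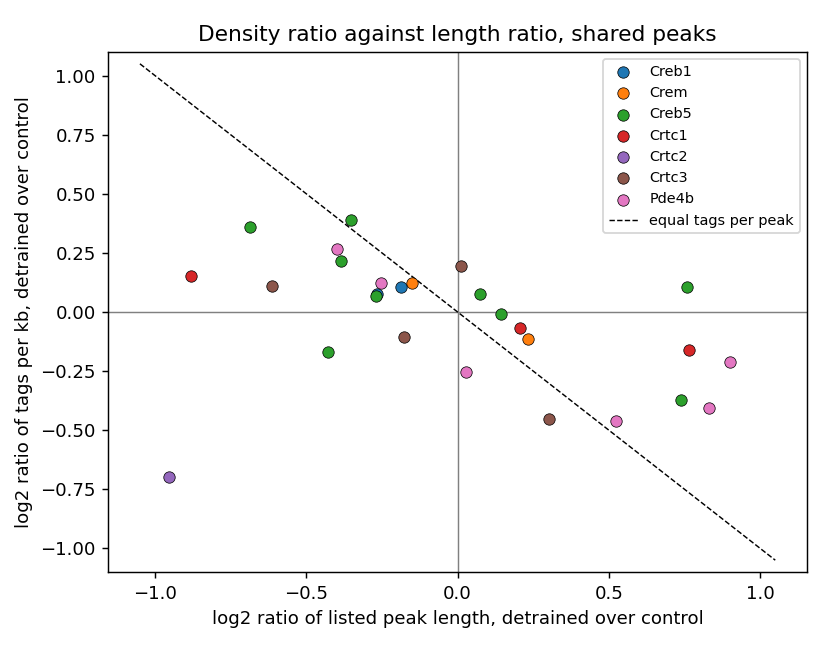
For the 27 shared peaks, the log2 ratio (detrained over control) of tags per kb against that of listed peak length, coloured by gene; on the dashed line a pair holds equal tags. Both axes contain the peak length, so a downward slope is built in; Crtc2, shorter and less dense in detrained mice, lies far from the line.

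The other genes of the pathway were counted in the same way. Peaks of 1 gene among the receptors and G proteins may have been missed, since its name was not a RefSeq symbol. Of 105 genes in 7 lists, 92 had a control and 88 a detrained peak, and their 288 shared pairs had a median log2 ratio of 0.02, with 69 below (24%) and 80 above (27.8%), against 27.2% and 21.3% of all pairs. These shares of all pairs are the background for each list. Upstream, receptors and G proteins had 25 pairs with 5 below and 5 above, and adenylyl cyclases, which make cAMP, had 25 with 10 below and 7 above. Among protein kinase A subunits, inhibitors, EPAC and anchors 13 of 63 pairs lay below and 23 above, and among other phosphodiesterases 5 of 40 and 13.

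Downstream, where the shares of all pairs are again 27.2% below and 21.3% above, other CREB and ATF factors had 8 of 15 pairs below and 2 above, with the lowest median of the lists, -0.15. The list of coactivators, kinases and phosphatases of CREB and CRTC had 22 of 69 below and 16 above. It included Ppp1r3a, a glycogen-targeting phosphatase subunit, with 4 of its 7 pairs below and 0 above. Known CREB target genes had 6 of 51 below and 14 above, with a median of 0.06. No test was made of any list. Sik1, the salt-inducible kinase that is itself a CREB target, had the most pairs, 15, with 4 below and 7 above. Its strongest pair had 86.4 and 79.1 tags per kb in control and 99.9 and 94.7 in detrained libraries, and summed tags of 572 and 702. Crebbp, the histone acetyltransferase that CREB recruits, had the lowest median, -0.78 over 1 pair, with 123 and 130 against 81.2 and 66.9 tags per kb. The tag totals of that pair were 262 in control and 264 in detrained mice, and the detrained peak was the longer. Atf4 had the highest, 0.62 over 1 pair, with 94.0 and 105 against 153 and 153 tags per kb, from 683 tags in a longer control peak and 605 in a shorter detrained one.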

How the data were processed

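The authors aligned H3K27ac ChIP-seq reads to mm10 with Bowtie (version 1.2 in the submitters' processing notes), made HOMER tag directories and listed peaks per group on both libraries against that group's input. The deposited pooled signal of a peak is tags per 10000000. The deposited log2 value per library is the regularized log that the authors made with DESeq2 within a table, shrunken for weak peaks. The authors' log2 fold over input and adjusted p-value served only to filter peaks. Columns named C2 and C3 do not match the labels' numbers and were assigned to the control group only.

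Each peak's pooled tags were shared between the libraries of its group by their totals and log2 values, since no counts per library were used here, and density was log2 of (tags + 0.5) per kb per 10000000 total tags. The spread is the pooled SD within groups. Since the log2 values were shrunken, the libraries of a group may lie too close to each other, most of all at weak peaks. The SDs may therefore be too small, and the groups may separate too readily. Intervals were taken as 1-based. Members and gene lists were chosen with earlier results of these data known. Peaks given value by value were the strongest promoter and distal pair of each member, the 3 highest and 3 lowest log2 ratios among pairs whose groups did not overlap, and, without a partner, the peak with most tags per list and member. For pathway genes they were those with most pairs and with the highest and lowest median. Other peaks were named after their values were seen, and so were the transcript starts, the motif counts and the merged regions chosen. Starts came from curated RefSeq transcripts of GRCm38.p6. The ratio steps were tested on simulated data in which both groups had the same peak outlines, so the pairing of differing outlines was not tested. Tags are counted without molecular identifiers. Python 3.11.15, numpy 2.4.6, pandas 2.3.3 and matplotlib 3.10.9 were used.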

Additional observations from a re-analysis of the deposited data

How the results depend on the processing

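No paired analysis was made, since the groups were different mice, and no test was made between the tables. Most values moved when tags per peak were taken without peak length and when overlapping peaks were merged. Without peak length the median log2 ratio of the 27 pairs became -0.083 and pairs above 7, and the medians became -0.14 for Creb1, 0.036 for Creb5, 0.14 for Crtc1, -1.65 for Crtc2, -0.22 for Crtc3 and -0.035 for Pde4b. Ratios of named peaks turned to -0.33 at the first Creb5 start and 0.42 at the Pde4b domain. They turned to 0.061 at the Pde4b peak 12.1 kb before the start of NM_001177980 and -0.51 at the intronic Crtc3 peak. Pathway medians became -0.074 for receptors and G proteins, -0.031 for protein kinase A genes and -0.066 for CREB and ATF factors. With merged regions, chosen after seeing the data, these peaks gave -0.33, 0.016, 0.061 and -0.51, the median was -0.0041 with 13 below and 11 above, and the medians by gene were -0.14 for Creb1, -0.073 for Creb5, 0.14 for Crtc1, -0.30 for Crtc2, -0.22 for Crtc3 and 0.039 for Pde4b. Both alternatives drop the division by listed length. Merged regions divided by the covered length, also chosen after seeing the data, gave a median of -0.010, -0.055 for Crtc2 and 0.025 for the Pde4b domain.

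Requiring 80% of each peak left 10 pairs, with 1 below and 1 above, against 23.7% and 16.5% of all pairs. Scaling to tags in listed peaks gave 10 above, against 27.8% of all pairs, and a Creb5 median of 0.12. With stricter peaks (at least 4-fold over input, adjusted p under 0.001) the median was -0.010 and Pde4b -0.33, and 24 control and 29 detrained peaks were kept, of which 21 and 21 overlapped. Equal numbers of top peaks left 46 and 43. With 50% of each peak covered, 27 overlapped in each group. Promoter peaks numbered 6 and 8 within 1 kb of a start, and 10 and 9 when covering one, a definition chosen after seeing the data. Leaving out 1 library each gave a median from -0.037 to 0.029, with 9 to 12 pairs below and 6 to 11 above, and medians from 0.042 to 0.15 for Creb5 and -0.075 to 0.072 for Crtc3. The median was -0.037 without C2, -0.022 without Ex2, 0.0083 without Ex1 and 0.029 without C3, against 0.07 with all libraries. Pairs above numbered 6 without C2, 8 without Ex1 and 11 without C3 or Ex2, and pairs below 12 without Ex2. Of all pairs 28.8% to 38.7% then lay above and 35.9% to 45.5% below, since 1 library separates from 2 more readily than 2 do. The single Crtc2 pair stayed between -0.77 and -0.63 with 1 library left out. That of the Pde4b domain ran from -0.58 to -0.24 and that of the first Creb5 start from 0.22 to 0.49. Neither the Crtc2 pair nor that of the Pde4b domain was kept at 80% coverage or when each peak could overlap only 1 other. Of the pairs chosen by rule, only those at the Creb1 start, the first Crem starts and the Crtc1 promoter were kept at 80% coverage. The pair over the Crtc3 start was among those lost. Centring, a pseudocount of 5 tags and any one-to-one overlap moved no ratio that they gave beyond its spread. Centring gave 7 pairs below and 6 above, and any one-to-one overlap 8 and 6, against 7 and 4. No shares of all pairs were computed for these settings.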
